A study of Mus musculus with 4 samples.

Results

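Monocytes and macrophages that transcribed Arg1 were examined among mouse liver leukocytes sequenced as single cells. Arg1 encodes arginase 1, the enzyme that turns arginine into ornithine and urea. Cells entered the group when their barcode held at least 200 genes and under 10% mitochondrial UMIs (unique molecular identifiers, each marking a captured transcript). They also had at least 1 UMI of Arg1 and at least 1 of Lyz2, the lysozyme gene of myeloid cells. Barcodes with any UMI of Cd3d, Cd3e, Cd3g, Cd79a, Siglech or Ppbp were left out, since these genes mark T cells, B cells, plasmacytoid dendritic cells and platelets. Of 20039 kept cells, 92 met this rule, and they are called Arg1 cells here. The cells set beside them, called Arg1-zero cells, passed the same exclusions and had 0 Arg1 UMIs and at least 3 Lyz2 UMIs, and they numbered 1882.

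All mice carried the IL-22-sgBFP reporter allele, in which blue fluorescent protein marks cells that express the cytokine IL-22. In the 12 h group, MC38 cells, a mouse colon carcinoma line, had been given by intrasplenic injection, a route that carries them to the liver with the portal blood. The 0 h group was taken before injection. CD45-positive liver leukocytes were sorted into an IL-22-positive (IL-22+) and an IL-22-negative (IL-22-) fraction, and each fraction gave 1 library at each time, 4 in all, so that no library has a replicate. The labels do not say how many mice stand behind a library. The ratios below therefore compare libraries or cells within a library, not conditions, and their 95% intervals cover counting error alone. No test between groups was possible.

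Monocytes leave the blood for injured or inflamed tissue and there become macrophages, whose program depends on local signals. Arginase 1 is induced in such cells by IL-4 and IL-13, by hypoxia and by lactate, and it competes with inducible nitric oxide synthase (Nos2) for arginine. In tumours and in healing wounds, macrophages that carry arginase often also transcribe growth factors, matrix proteins and chemokines.

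Arg1 cells were found after injection in both sort fractions and in neither fraction before it. They made up 69 of 1350 cells (5.11%, 95% exact interval 3.998 to 6.42%) in the 12 h IL-22-positive library and 23 of 10099 cells (0.228%, 0.144 to 0.341%) in the 12 h IL-22-negative library. At 0 h there were 0 of 289 cells in the IL-22-positive library, which allows a share of up to 1.04% (3 counts of the total, as for every share of 0 here), and 0 of 8301 in the IL-22-negative library, which allows up to 0.0361%. The deposited libraries held 5048583 (IL-22+) and 29859062 (IL-22-) UMIs at 12 h and 1148221 (IL-22+) and 18891674 (IL-22-) UMIs at 0 h. The median kept cell held 3726 (IL-22+) and 2230 (IL-22-) UMIs at 12 h and 3387 (IL-22+) and 1829 (IL-22-) UMIs at 0 h. Pairs of libraries shared between 0 and 116 barcodes, and both 12 h libraries shared 13.

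Because free RNA can place a few UMIs in cells that do not express a gene, the share of cells with an Arg1 UMI was set beside that of lymphocytes, which should lack it. Among cells with at least 3 Lyz2 UMIs, 56 of 1092 held Arg1 in the 12 h IL-22-positive library (5.13%, 3.90 to 6.61%, median depth 4095 UMIs), and 19 of 580 did so in the IL-22-negative one (3.28%, 1.98 to 5.07%, median depth 4995.5). In the 12 h IL-22-negative library the share was 0.578% of 2075 B cells and 0.508% of 4925 T cells, at median depths of 1674 and 2318 UMIs. At 0 h it was 0.0982% of 2036 B cells and 0.114% of 3497 T cells of the IL-22-negative fraction, lower than at 12 h in lymphocytes too. With every cell thinned to 1000 UMIs, the shares in the 12 h IL-22-negative library were 2.11% of Lyz2 cells, 0.410% of B cells and 0.344% of T cells. In the 12 h IL-22-positive library there were 31 B cells, of which 2 held Arg1 (6.45%, 0.791 to 21.4%), with 89 Arg1 UMIs between them. There the share alone did not set Lyz2 cells apart from B cells, while 0 of 46 T cells held Arg1, which allows up to 6.52%. The 2 B cells with Arg1 also held Lyz2. In the 12 h IL-22-negative library, 9 cells with Arg1 and Lyz2 held Cd79a and 14 held a Cd3 gene. The lymphocyte shares thus include cells that held Lyz2 as well. At 0 h, Arg1 UMIs were found in 0 of 168 IL-22+ and 0 of 117 IL-22- cells with at least 3 Lyz2 UMIs, which allows up to 1.79% and 2.56%. The 0 h limits thus lie under the 12 h share in the IL-22-positive fraction and within the 12 h interval in the IL-22-negative fraction.

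**Figure D1:**
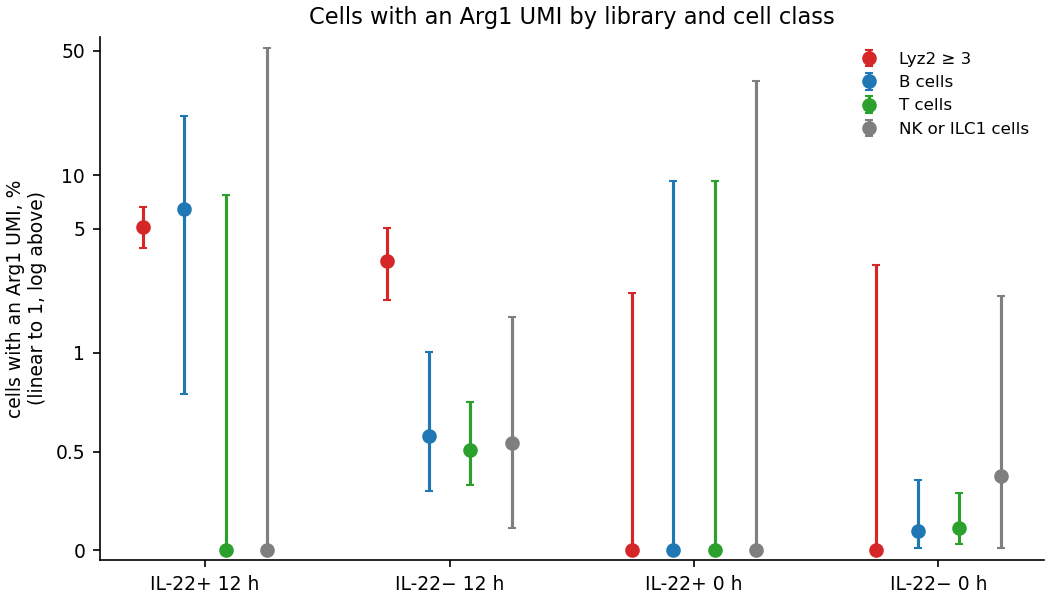
Share of cells with at least 1 Arg1 UMI (vertical axis, percent, linear up to 1 and logarithmic above) in cells with at least 3 Lyz2 UMIs, B cells, T cells, and NK and ILC1 cells of each library; points are shares and bars are exact 95% intervals for counting error. Lyz2 cells lie at 5.13% and 3.28% in the 12 h IL-22-positive and IL-22-negative libraries and at 0 at 0 h, and the few B cells of the 12 h IL-22-positive library have an interval from 0.791 to 21.4%.

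Arg1 amounts differed widely between single Arg1 cells. The 12 h IL-22-positive library had 679 Arg1 UMIs in its Arg1 cells and the IL-22-negative one 275, with medians of 4 and 5 UMIs per cell and highest values of 73 and 82. A single Arg1 UMI put 21 of the 69 IL-22+ and 6 of the 23 IL-22- cells into the group, while 20 and 8 cells held 10 or more. The 5 richest cells held 272 of the 679 UMIs and 194 of the 275. At the Lyz2 threshold, 7 and 2 members had exactly 1 Lyz2 UMI and 56 and 19 had at least 3. Just outside the rule lay 9 IL-22+ and 10 IL-22- cells with Arg1 but no Lyz2, and 5 and 23 cells with both genes and a UMI of an excluded gene. The shares of lymphocytes with Arg1 stand above, and the part of free RNA in the cells with 1 UMI was not tested.

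The label of these cells was compared with markers of liver and blood cell types. Genes of classical monocytes, the CCR2-bearing cells that enter tissue from blood, were present in nearly all Arg1 cells. At least 2 of the 8 classical monocyte markers were detected in 65 of 69 cells (94.2%) of the IL-22-positive library and 22 of 23 (95.7%) of the IL-22-negative library, against 92.2% and 92.7% of the Arg1-zero cells of the same libraries. Ccr2, their chemokine receptor, was detected in 45 IL-22+ and 21 IL-22- Arg1 cells, and Csf1r, the receptor of macrophage growth factor, in 43 and 9. At least 1 of the 6 markers of C1q macrophages, which are complement C1q and other tissue macrophage genes, was detected in 54 of 69 IL-22+ (78.3%) and 14 of 23 IL-22- (60.9%) Arg1 cells. At least 2 of them were detected in 39.1% of IL-22+ and 26.1% of IL-22- Arg1 cells, against 33.3% and 20.1% of Arg1-zero cells of 12 h. Kupffer cells, the resident liver macrophages, contributed 6 UMIs of their marker list in IL-22+ and 0 UMIs in IL-22- Arg1 cells, and their defining gene Clec4f was at 0 in all groups. Neutrophil markers summed to 437 CPM (UMIs of the summed cells, scaled to the usual fixed total) in IL-22+ and 410 CPM in IL-22- Arg1 cells, against 2547 and 3898 CPM in Arg1-zero cells of 12 h. The T cell list was at 0 UMIs in both libraries, where the rule had barred Cd3 genes, and the platelet list at 0 and 1 UMI. Constitutive hepatocyte genes summed to 252 CPM in IL-22+ and 402 CPM in IL-22- Arg1 cells, against 165 and 158 CPM in Arg1-zero cells of 12 h. Hepatocytes also transcribe Arg1. Genes of NK cells and ILC1 summed to 7.74 CPM in IL-22+ and 393 CPM in IL-22- Arg1 cells, where 5 of 23 cells held them, against 6.40 and 283 CPM in Arg1-zero cells of 12 h. The part of these cell types in the ratios below was not tested. Doublet calling by Scrublet marked 2 of 69 and 0 of 23 Arg1 cells. Median depth was 3605 UMIs per IL-22+ and 4450 UMIs per IL-22- Arg1 cell, and 4103 and 5002 per Arg1-zero cell of 12 h. By these lists the Arg1 cells carried classical monocyte genes in nearly every cell, with Kupffer cell genes at or near 0.

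The gene Pf4, a marker given for these cells, encodes platelet factor 4 (CXCL4), a chemokine of platelets that macrophages also transcribe. It lies on chromosome 5 at chr5:90772435-90773383 on the plus strand (GRCm38), in a cluster of CXC chemokine genes that spans 146.579 kb and also holds Cxcl3 (chr5:90786103-90789600), Cxcl1 (chr5:90891241-90893115) and Cxcl2 (chr5:90903871-90905938), all on the plus strand. Cxcl3, Cxcl1 and Cxcl2 encode ligands of CXCR2, the receptor that draws neutrophils. All 4 were higher in Arg1 cells than in Arg1-zero cells of both 12 h libraries, so the promoters of 3 of them are shown from RefSeq (GRCm38.p6), each from 250 bases before to 50 bases after the annotated start. Pf4 is at chr5:90772185-90772484, Cxcl3 at chr5:90785851-90786150 and Cxcl2 at chr5:90903649-90903948, all read on the plus strand from 5′ to 3′. Capitals mark a form of the NF-kappaB motif in Cxcl3 and Cxcl2, which is GGG and TTTCC with any 2 bases between them. In Pf4 they mark a form of the C/EBP motif, which is TTGC and AA with any 2 bases between them. Both were searched on both strands.
Pf4: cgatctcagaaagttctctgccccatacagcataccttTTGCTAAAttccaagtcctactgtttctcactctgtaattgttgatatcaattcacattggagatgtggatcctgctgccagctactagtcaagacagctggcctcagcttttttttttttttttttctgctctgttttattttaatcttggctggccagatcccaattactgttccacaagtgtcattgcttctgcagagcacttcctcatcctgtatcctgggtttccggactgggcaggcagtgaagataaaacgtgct
Cxcl3: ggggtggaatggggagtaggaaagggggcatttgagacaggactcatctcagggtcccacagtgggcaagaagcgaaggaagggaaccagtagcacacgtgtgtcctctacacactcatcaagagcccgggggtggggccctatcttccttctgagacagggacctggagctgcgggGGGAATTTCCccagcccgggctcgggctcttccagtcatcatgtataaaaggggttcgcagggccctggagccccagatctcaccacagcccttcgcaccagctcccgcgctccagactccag
Cxcl2: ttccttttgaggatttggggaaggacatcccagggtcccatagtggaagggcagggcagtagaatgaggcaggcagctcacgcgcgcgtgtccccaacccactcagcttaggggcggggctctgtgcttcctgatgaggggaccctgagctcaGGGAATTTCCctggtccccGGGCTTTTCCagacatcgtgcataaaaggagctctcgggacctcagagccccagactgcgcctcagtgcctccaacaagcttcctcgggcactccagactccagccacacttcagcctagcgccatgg
The NF-kappaB letters occur once in the Cxcl3 window, 73 bases before the start, and at 2 places in the Cxcl2 window, 97 and 78 bases before it. Among 32851 mouse promoters of the same length, 535 (1.63%) hold them. The C/EBP letters in the Pf4 window lie 212 bases before the start, and 10.8% of all promoters hold them. A match describes letters and does not show that a factor bound there.

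Within each 12 h library, UMIs were summed over Arg1 cells and over Arg1-zero cells and set side by side as CPM. Genes that reached 100 CPM and 30 UMIs on their higher side were compared, and a gene counts as higher or lower here when the sums differed at least 2-fold. In the IL-22-positive library 87 of 1324 genes (6.57%) were higher in Arg1 cells and 52 (3.93%) lower. In the IL-22-negative library 53 of 987 (5.37%) were higher and 90 (9.12%) lower, or 67 and 59 with sums scaled to the median ratio of all genes. The median log2 ratio of all genes was -0.08 for IL-22-positive cells and -0.18 for IL-22-negative cells, so a typical ratio lay slightly under 1. Of 881 genes measured in both libraries, 31 were higher in both and 14 lower in both. Since Arg1 UMIs chose the cells, these ratios describe the cells and support no claim. A gene that is low in Arg1-zero cells reached the minimum through the Arg1 cells alone and so had to differ, which raises the counts and medians of the gene lists below, given as descriptions only. For such a gene, 30 UMIs is the stricter minimum in either library, more so with the 23 Arg1 cells of the IL-22-negative one. A gene that is low in Arg1 cells reached the minimum through the Arg1-zero cells alone and so had to be lower. The shares of all genes given above belong beside each list count below. Arg1-zero cells of 0 h are given as a further level.

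**Figure D2:**
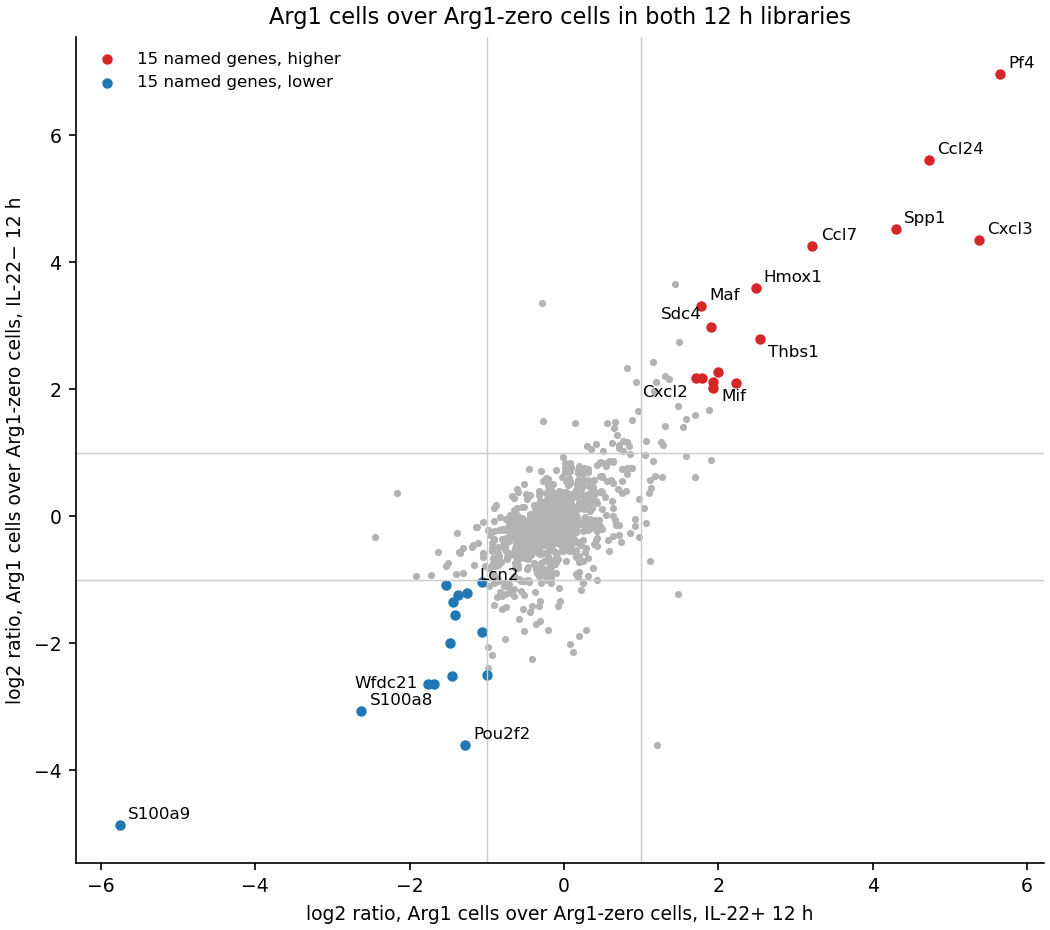
Log2 ratio of summed CPM, Arg1 cells over Arg1-zero cells, for the 881 genes measured in both 12 h libraries, with the IL-22-positive library on the horizontal and the IL-22-negative library on the vertical axis. Grey lines mark 2-fold; the 15 named genes that were higher (red) include Pf4, Ccl24 and Cxcl3 at the upper right, and the 15 named genes that were lower (blue) include S100a9 and S100a8 at the lower left.

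Chemokine genes made up 6 of the 15 genes named by rule as higher in Arg1 cells of both libraries. Of the chemokine list, 8 of 13 measured genes were higher and 2 lower in the IL-22-positive library, and 8 of 12 were higher and 0 lower in the IL-22-negative library, with median log2 ratios of 1.37 and 2.19. Of all genes, 6.57% were higher and 3.93% lower in the IL-22-positive library, and 5.37% and 9.12% in the IL-22-negative one. Pf4, Cxcl3 and Ccl7 were among those that reached the minimum through Arg1 cells alone. Pf4 stood at 1320 and 314 CPM in Arg1 cells of the 12 h IL-22-positive and IL-22-negative libraries, at 26.3 and 2.52 CPM in Arg1-zero cells of those libraries, and at 67.7 and 0 CPM in Arg1-zero cells of 0 h. The ratio was 50.2 (95% interval 40.4 to 62.7) for IL-22-positive cells and 125 (54.8 to 332) for IL-22-negative cells. Pf4 was nevertheless detected in a minority of cells, 19 of 69 and 6 of 23, and 1 cell held 158 of the 341 UMIs in the IL-22-positive library and 1 held 17 of 36 in the IL-22-negative one. Without cells that carried C1q, Retnlg or Flt3 UMIs among the Arg1-zero cells, the ratio in the IL-22-positive library was 713. The Arg1 cells were not filtered in this way, and 26 of the 69 held a C1q UMI, so the sides were treated unlike.

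Ccl24, which encodes eotaxin-2, a ligand of the eosinophil receptor CCR3, stood at 1475 CPM in IL-22+ and 1947 CPM in IL-22- Arg1 cells, against 55.5 and 39.9 CPM in Arg1-zero cells of 12 h and 21.7 and 2.11 CPM in those of 0 h. The ratios were 26.6 (22.5 to 31.4) in IL-22+ and 48.8 (38.7 to 61.8) in IL-22- cells, and Ccl24 was detected in 27 of 69 and 14 of 23 cells, more widely than Pf4. Cxcl3 stood at 267 CPM in IL-22+ and 515 CPM in IL-22- Arg1 cells, against 6.40 and 25.2 CPM in Arg1-zero cells of 12 h, and had 0 UMIs in those of 0 h. Its ratios were 41.7 (26.4 to 67.7) in IL-22+ and 20.5 (14.2 to 29.3) in IL-22- cells, detected in 14 of 69 and 9 of 23 cells. For Cxcl3, 1 cell held 23 of the 69 IL-22+ UMIs and 1 held 27 of the 59 IL-22- UMIs. Cxcl2 was broadly present, in 62 of 69 and 19 of 23 Arg1 cells, at 9347 CPM in IL-22+ and 10798 CPM in IL-22- Arg1 cells, against 2848 and 2378 CPM in Arg1-zero cells of 12 h and 1638 and 860 CPM in those of 0 h. Its ratios, 3.28 (3.14 to 3.43) in IL-22+ and 4.54 (4.27 to 4.83) in IL-22- cells, were thus smaller, on a gene detected in most Arg1 cells. Most Arg1-zero cells of 12 h held Cxcl2 too, 75.1% of IL-22+ and 65.6% of IL-22- cells. Cxcl1 had ratios of 2.71 (1.81 to 3.93) in IL-22+ and 12.6 (8.82 to 17.9) in IL-22- cells, with 13 and 6 cells detected.

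The CC chemokines that draw monocytes were higher as well. Ccl7, a ligand of CCR2, stood at 720 CPM in IL-22+ and 559 CPM in IL-22- Arg1 cells, against 77.3 and 29.1 CPM in Arg1-zero cells of 12 h and 16.3 and 0 CPM in those of 0 h, with ratios of 9.31 (7.74 to 11.2) and 19.2 (13.6 to 26.9). Ccl2, the chief ligand of CCR2, whose gene at chr11:82035571-82037453 lies next to that of Ccl7 at chr11:82045712-82047525 (GRCm38), stood at 1610 CPM in IL-22+ and 2077 CPM in IL-22- Arg1 cells, against 624 and 464 CPM, for ratios of 2.58 and 4.48. Ccl9 had ratios of 3.98 in IL-22+ and 4.84 in IL-22- cells, and Ccl6 2.47 and 4.61, both ligands of CCR1. The lymphocyte-drawing chemokines did not share this direction. Cxcl9, an interferon gamma-induced ligand of CXCR3, stood at 7.74 CPM in Arg1 cells of the IL-22-positive library, against 260 CPM in its Arg1-zero cells, a ratio of 0.0298. Cxcl10, another ligand of CXCR3, had ratios of 0.860 in IL-22+ and 0.745 in IL-22- cells, and Ccl5, which draws T cells, 0.224 and 1.29. Ccl3 and Ccl4, chemokines that activated macrophages release, lay within 2-fold, at 1.05 in IL-22+ and 1.78 in IL-22- cells for Ccl3 and 0.709 and 1.28 for Ccl4.

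**Figure D3:**
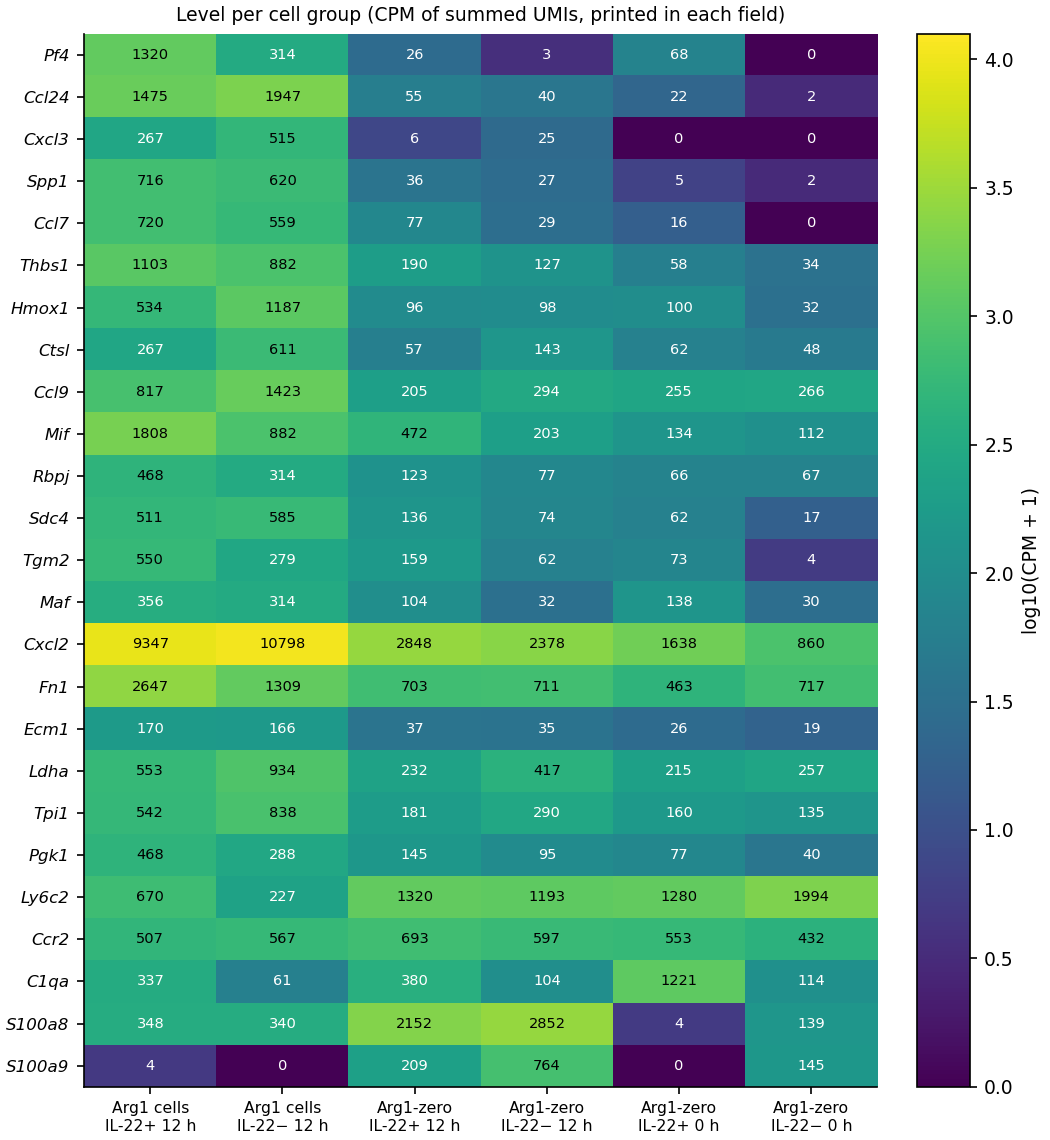
Heat map of CPM (printed in each field, colour on the scale log10 of CPM + 1) for named genes in Arg1 cells of the 12 h IL-22-positive and IL-22-negative libraries and in Arg1-zero cells of the 12 h and 0 h libraries. Pf4, Ccl24, Cxcl3, Spp1 and Ccl7 have values from 267 to 1947 CPM in both groups of Arg1 cells and at most 77.3 CPM in every group of Arg1-zero cells.

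Secreted proteins other than chemokines, and matrix genes, were the second group. Spp1, which encodes osteopontin, an adhesive phosphoprotein, stood at 716 CPM in IL-22+ and 620 CPM in IL-22- Arg1 cells, against 36.3 and 27.0 CPM in Arg1-zero cells of 12 h and 5.42 and 2.11 CPM in those of 0 h. The ratios were 19.7 (15.8 to 24.6) in IL-22+ and 23.0 (16.4 to 32.2) in IL-22- cells, carried by 14 of 69 and 6 of 23 cells. For Spp1, 1 cell held 75 of the 185 IL-22+ UMIs and 1 held 24 of the 71 IL-22- UMIs. Thbs1, which encodes thrombospondin 1, a matrix glycoprotein that activates latent TGF-beta, was in 48 of 69 and 14 of 23 cells. It was also in 34.4% of IL-22+ and 23.7% of IL-22- Arg1-zero cells of 12 h. Its levels were 1103 CPM in IL-22+ and 882 CPM in IL-22- Arg1 cells, against 190 and 127 CPM in Arg1-zero cells of 12 h and 58.3 and 33.7 CPM in those of 0 h. The ratios were 5.80 (5.05 to 6.65) in IL-22+ and 6.96 (5.52 to 8.71) in IL-22- cells. Without the richest cell of each side, the IL-22- ratio was 4.08. Fn1, which encodes fibronectin, stood at 2647 CPM in IL-22+ and 1309 CPM in IL-22- Arg1 cells, against 703 and 711 CPM, for ratios of 3.76 (3.46 to 4.09) and 1.84 (1.55 to 2.17). Tgm2, the cross-linking enzyme transglutaminase 2, had ratios of 3.45 in IL-22+ and 4.54 in IL-22- cells, and Sdc4, the heparan sulphate proteoglycan syndecan 4, 3.75 and 7.89. Ecm1, extracellular matrix protein 1, had 4.60 in the IL-22-positive library, at 170 CPM in Arg1 cells against 37.0 CPM in Arg1-zero cells. Of the list of coagulation, fibrinolysis and matrix genes, 4 of 8 measured genes were higher and 1 lower in the IL-22-positive library (higher were Fn1, Thbs1, Ecm1 and the coagulation factor gene F10; lower was the neutrophil collagenase gene Mmp8), and 2 of 6 were higher and 1 lower in the IL-22-negative library.

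Genes known from tumour-associated macrophages came next. Of this list, 12 of 16 measured genes were higher and 0 lower in the IL-22-positive library, with a median log2 ratio of 2.18 against -0.0821 over all genes. Of 9 measured in the IL-22-negative library, 6 were higher and 0 lower, with a median of 2.12 against -0.182. The list was drawn up with earlier results of these libraries known, and Adam8, Ecm1, Hilpda and Vegfa were among those that passed the minimum through Arg1 cells alone. Mif, the cytokine macrophage migration inhibitory factor, was present in 56 of 69 and 20 of 23 Arg1 cells, at 1808 CPM in IL-22+ and 882 CPM in IL-22- Arg1 cells, against 472 and 203 CPM in Arg1-zero cells of 12 h and 134 and 112 CPM in those of 0 h. Its ratios were 3.83 (3.45 to 4.24) in IL-22+ and 4.35 (3.48 to 5.38) in IL-22- cells. Mif was also detected in 53.8% of IL-22+ and 49.7% of IL-22- Arg1-zero cells of 12 h. Vegfa, which encodes the main vascular growth factor, stood at 159 CPM in Arg1 cells of the IL-22-positive library, in 25 of 69 cells, against 24.2 CPM in its Arg1-zero cells, a ratio of 6.56 (4.45 to 9.52). Vegfa in the IL-22-negative library stood at 17.5 CPM, against 12.2 CPM, below the minimum for comparison. Hilpda, a hypoxia-induced lipid droplet protein, had a ratio of 9.08 and Adam8, a membrane protease, 9.01 in the IL-22-positive library. Apoe, the lipid carrier that marks many tissue macrophages, did not differ 2-fold, at 1.06 in IL-22+ and 1.63 in IL-22- cells.

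Genes of arginine metabolism other than Arg1 were mostly at low counts. Arg1 lies on the minus strand of chromosome 10 at chr10:24915221-24927484 (GRCm38). Nos2, which encodes the enzyme that competes for arginine, had 2 UMIs in IL-22+ and 0 UMIs in IL-22- Arg1 cells, Arg2, the mitochondrial arginase, 0 and 2 UMIs, and Slc7a2, an arginine transporter, 7 and 0 UMIs. Odc1, which encodes ornithine decarboxylase, the next step towards polyamines, stood at 101 CPM in IL-22+ and 69.8 CPM in IL-22- Arg1 cells, against 59.98 and 42.1 CPM, under the minimum of UMIs. Smox, spermine oxidase, was the 1 gene of the 3 measured in the IL-22-positive library that was higher, at 217 CPM against 51.0 CPM, a ratio of 4.25 (3.11 to 5.73). Sat1, which acetylates polyamines, had ratios of 0.771 in IL-22+ and 0.784 in IL-22- cells.

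Alternative activation, the state that IL-4 and IL-13 induce, was represented in part. In the IL-22-positive library 3 of 5 measured genes of that list were higher (Ccl24, Tgm2 and the scavenger receptor gene Msr1, at 2.05) and 1 lower (Chil3, a chitinase-like protein, at 0.448). Of 3 measured in the IL-22-negative library, 2 were higher, and Chil3 stood at 0.585. Retnla, a resistin-like protein induced by IL-4, had 4 UMIs in IL-22+ and 0 UMIs in IL-22- Arg1 cells, while Arg1-zero cells of the 0 h IL-22-positive library held 268 UMIs. Mrc1, the mannose receptor, had 8 UMIs in IL-22+ and 12 UMIs in IL-22- Arg1 cells. The list thus split between genes that were high in Arg1 cells and genes that were low or nearly undetected.

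Enzymes of glycolysis, which turns glucose into lactate when oxygen is short, included 3 that were at least 2-fold higher in both libraries. Of the list of glycolysis and hypoxia genes, 14 of 17 measured genes were higher and 0 lower in the IL-22-positive library, the median log2 ratio being 1.18, and 4 of 9 were higher and 0 lower in the IL-22-negative library, with a median of 0.955. Among all genes, 6.57% and 5.37% were higher in these libraries. Bnip3, Ankrd37 and P4ha1 were among those that reached the minimum only in the Arg1 cells of the IL-22-positive library. Ldha, which encodes the lactate dehydrogenase subunit that makes lactate, stood at 553 CPM in IL-22+ and 934 CPM in IL-22- Arg1 cells, against 232 and 417 CPM in Arg1-zero cells of 12 h and 215 and 257 CPM in those of 0 h. Its ratios were 2.38 (1.99 to 2.84) in IL-22+ and 2.24 (1.82 to 2.73) in IL-22- cells, and it was detected in 50 of 69 and 22 of 23 cells. Pgk1, phosphoglycerate kinase, stood at 468 CPM in IL-22+ and 288 CPM in IL-22- Arg1 cells, against 145 and 94.96 CPM in Arg1-zero cells, for ratios of 3.24 (2.64 to 3.94) and 3.03 (2.05 to 4.37). Tpi1, triosephosphate isomerase, had 3.00 (2.49 to 3.60) in IL-22+ and 2.89 (2.31 to 3.58) in IL-22- cells. These 3 enzymes were higher in both fractions by nearly the same ratio.

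Other enzymes of the pathway passed 2-fold in the IL-22-positive library and lay between 1 and 2 in the IL-22-negative one. Gapdh, a dehydrogenase of the pathway, had ratios of 2.27 in IL-22+ and 1.55 in IL-22- cells, the enolase gene Eno1 2.23 and 1.83, and the pyruvate kinase gene Pkm 2.17 and 1.48. Bnip3, a mitophagy receptor induced by hypoxia, stood at 209 CPM in Arg1 cells of the IL-22-positive library, against 37.5 CPM in its Arg1-zero cells, a ratio of 5.58 (4.02 to 7.64). Slc16a3, the lactate exporter MCT4, had 3.18 there. Hif1a, the hypoxia-stabilised transcription factor subunit, had 1.85 in IL-22+ and 2.87 in IL-22- cells. Cell by cell, the summed list had a median of 12508 CPM in the 69 IL-22+ Arg1 cells and 12793 CPM in the 23 IL-22- ones, against 4614 and 7414 CPM in Arg1-zero cells of 12 h and 3849 and 4495 CPM in those of 0 h. The list was thus high in the typical Arg1 cell and not in a few cells alone, although single Arg1 cells ranged from 2581 to 33862 CPM in the IL-22-positive library and from 4173 to 40566 CPM in the IL-22-negative one.

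**Figure D4:**
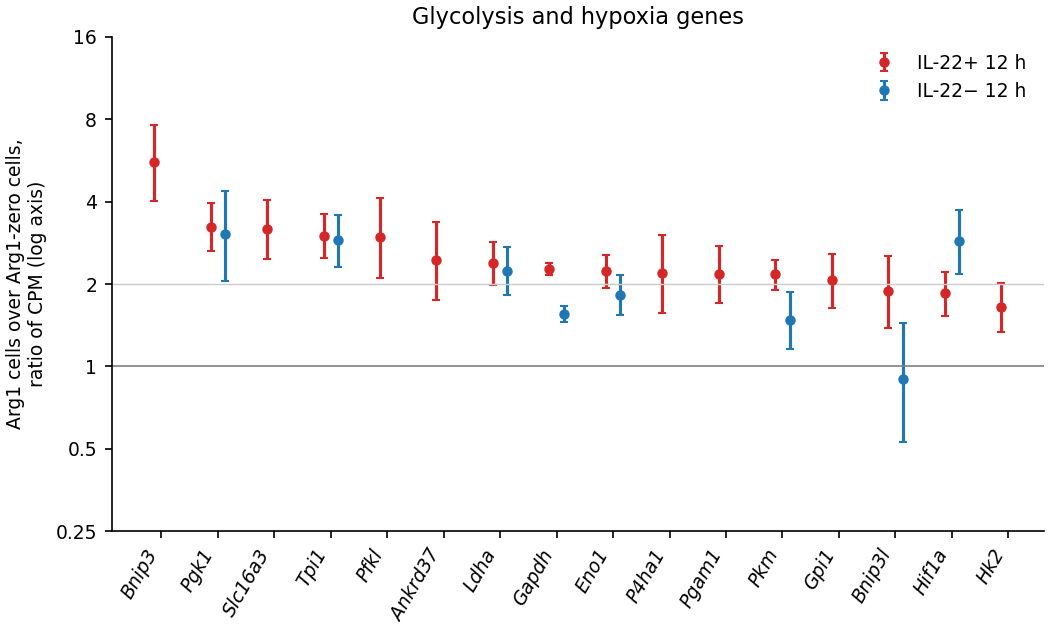
Ratio of summed CPM, Arg1 cells over Arg1-zero cells (vertical logarithmic axis), in the 12 h IL-22-positive and IL-22-negative libraries. Genes of the glycolysis and hypoxia list stand along the horizontal axis. Points are ratios and bars are 95% intervals for counting error. Pgk1, Tpi1 and Ldha lie above 2 in both libraries, Bnip3 lies at 5.58 in the IL-22-positive library, and Bnip3l lies at 1.89 and 0.903.

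Promoters of Ldha and Pgk1 are shown because both enzymes were higher in both libraries and because hypoxia-inducible factors bind a short motif in such promoters. Capitals mark ACGTG or GCGTG on either strand. The first Ldha promoter is at chr7:46845554-46845853 and that of Pgk1 at chrX:106186850-106187149, both RefSeq, GRCm38.p6, plus strand, 5′ to 3′.
Ldha: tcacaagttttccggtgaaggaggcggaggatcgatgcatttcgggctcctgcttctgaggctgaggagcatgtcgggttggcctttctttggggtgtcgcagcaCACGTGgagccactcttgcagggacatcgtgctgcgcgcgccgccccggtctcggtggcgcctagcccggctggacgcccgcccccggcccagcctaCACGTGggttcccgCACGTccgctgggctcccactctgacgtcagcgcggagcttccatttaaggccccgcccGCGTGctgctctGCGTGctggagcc
Pgk1: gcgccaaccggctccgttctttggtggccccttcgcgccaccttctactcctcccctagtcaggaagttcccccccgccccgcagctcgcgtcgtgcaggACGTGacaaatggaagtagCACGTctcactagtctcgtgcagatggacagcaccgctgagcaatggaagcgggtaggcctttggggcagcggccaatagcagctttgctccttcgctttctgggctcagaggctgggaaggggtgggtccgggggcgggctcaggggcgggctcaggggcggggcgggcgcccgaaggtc
Merged where they overlap, these letters occur at 5 places in the Ldha window and at 2 in that of Pgk1. They were present in 16 of the 20 promoters of the 14 list genes that were at least 2-fold higher in the IL-22-positive library. Of all 32851 promoters, 43.8% hold this short motif. Gpi1 and Tpi1 had it in none. Tpi1 had no match and a ratio near that of Pgk1. The promoters of the other list genes were not examined singly. The same letters also occur, unmarked, in the chemokine windows shown above, at 1 place in Pf4, 1 in Cxcl3 and 2 in Cxcl2.

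Iron handling and oxidative stress genes were led by Hmox1, which encodes heme oxygenase 1, the enzyme that breaks down heme. It stood at 534 CPM in IL-22+ and 1187 CPM in IL-22- Arg1 cells, against 95.6 and 97.8 CPM in Arg1-zero cells of 12 h and 100.3 and 31.6 CPM in those of 0 h. The ratios were 5.59 (4.57 to 6.80) in IL-22+ and 12.1 (9.80 to 14.96) in IL-22- cells. In the IL-22-negative library 1 Arg1 cell held 78 of 136 UMIs, and the ratio was 5.70 without the richest cell of each side. Mt1, a metal-binding metallothionein, had ratios of 2.48 in IL-22+ and 2.69 in IL-22- cells. Fth1, the heavy chain of ferritin, had 2.04 in IL-22+ and 1.10 in IL-22- cells, and Slc7a11, the cystine importer, 1.91 and 4.35. Of the list, 3 of 8 measured genes were higher for IL-22-positive cells and 3 of 7 for IL-22-negative cells, where 1 was lower (Gsr, glutathione reductase, at 0.481). The shares of all genes that were higher were 6.57% and 5.37%.

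Lysosomal and lipid genes were higher in part. Ctsl, which encodes the lysosomal protease cathepsin L, had ratios of 4.69 in IL-22+ and 4.27 in IL-22- cells, and Ctsd, which encodes cathepsin D, 2.28 and 4.34. Plin2, the coat protein of lipid droplets, had 2.90 in IL-22+ and 2.64 in IL-22- cells. Fabp5, a fatty acid carrier, differed between the fractions. It stood at 147 and 908 CPM in Arg1 cells of the IL-22-positive and IL-22-negative libraries, against 179 and 88.1 CPM in Arg1-zero cells, for ratios of 0.821 and 10.3 (8.11 to 13.01), and 1 cell held 57 of the 104 UMIs in the IL-22-negative library. Of the list, 5 of 15 measured genes were higher for IL-22-positive cells and 4 of 12 for IL-22-negative cells, and 0 were lower in either. Higher among all genes were 6.57% and 5.37%.

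Among transcription factors of monocytes and macrophages, 2 of 17 measured genes were higher in the IL-22-positive library (Rbpj and Maf), beside 6.57% of all genes. Of 14 measured in the IL-22-negative library, 3 were higher, among them Rbpj and Maf, and 2 lower (Klf4 and Nr4a1). There 5.37% of all genes were higher and 9.12% lower. Rbpj, the DNA-binding partner of Notch, had ratios of 3.81 in IL-22+ and 4.06 in IL-22- cells and was detected in 51 of 69 and 13 of 23 cells. It was also detected in 34.0% of IL-22+ and 29.8% of IL-22- Arg1-zero cells of 12 h. Maf, a factor of macrophage differentiation, stood at 356 CPM in IL-22+ and 314 CPM in IL-22- Arg1 cells, against 104 and 31.7 CPM, for ratios of 3.41 (2.70 to 4.28) and 9.93 (6.54 to 14.8). Cebpb, a factor that induces Arg1 in macrophages, lay at nearly the same level in Arg1 and Arg1-zero cells of a library, at 461 CPM in IL-22+ and 1772 CPM in IL-22- Arg1 cells against 473 and 1730 CPM. Its level did differ between the libraries, by about as much in either group of cells, with IL-22-positive over IL-22-negative ratios of 0.260 in Arg1 cells and 0.273 in Arg1-zero cells.

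Genes of phagocytosis, inflammation and antigen presentation were higher in some cases only. Itgam, the integrin CD11b, had ratios of 2.08 in IL-22+ and 1.95 in IL-22- cells, and Cd14, the lipopolysaccharide co-receptor, 2.78 and 3.33. Ptgs2, which encodes the prostaglandin enzyme COX-2, had 5.67 (4.21 to 7.56) in the IL-22-positive library, where 31 of 69 cells held it, at 252 CPM against 44.3 CPM. Il1b, which encodes interleukin 1 beta, lay within 2-fold, at 1.39 in IL-22+ and 1.81 in IL-22- cells. Of the 6 measured MHC class II genes, which present antigen to CD4 T cells, 0 were higher and 0 lower in either library, and Cd74, their invariant chain, had ratios of 0.988 in IL-22+ and 0.870 in IL-22- cells. Immediate early genes, which cell dissociation can induce, included 1 of 13 higher in the IL-22-positive library (Ier3) and 2 of 13 in the IL-22-negative one (Ier3 and Egr1), with median log2 ratios of 0.227 and 0.174. Beside these counts, 6.57% and 5.37% of all genes were higher.

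Interferon-induced genes were mostly lower in IL-22- Arg1 cells and mostly within 2-fold in IL-22+ Arg1 cells. In the IL-22-positive library 1 of 10 measured genes was higher and 0 lower, while for IL-22-negative cells 0 of 6 were higher and 5 lower, with median log2 ratios of 0.18 and -1.52. Rsad2, the antiviral enzyme viperin, stood at 530 and 8.73 CPM in Arg1 cells of the IL-22-positive and IL-22-negative libraries, against 229 and 106 CPM in Arg1-zero cells. The IL-22-positive value came from 10 of 69 cells and the IL-22-negative one from 1 of 23. Isg15, an interferon-induced ubiquitin-like protein, stood at 1428 CPM in IL-22+ and 192 CPM in IL-22- Arg1 cells, against 1253 and 710 CPM, for ratios of 1.14 (1.02 to 1.27) and 0.270 (0.169 to 0.410). It was detected in 35 IL-22+ and 8 IL-22- Arg1 cells. The summed list stood at 5593 CPM in all IL-22+ Arg1 cells, against 5451 CPM in Arg1-zero cells. In IL-22+ cells with 1, 2 to 9 and at least 10 Arg1 UMIs it stood at 5950, 6999 and 3330 CPM. The same classes of IL-22- cells had 1871, 1262 and 2502 CPM, so neither library had an order. Cells with Pf4 had 2280 CPM in IL-22+ and 1703 CPM in IL-22- cells, against 6521 and 1942 CPM without it. The difference between the fractions was not tested.

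Lower in Arg1 cells of both libraries were genes best known from neutrophils and from the acute phase. All measured genes of the neutrophil list were lower, 3 of 3 for IL-22-positive cells and 4 of 4 for IL-22-negative cells. Of all genes, 3.93% and 9.12% were lower. S100a9 and Mmp8, and Retnlg in the IL-22-negative library, reached the minimum through Arg1-zero cells alone and so had to be lower. S100a8, a subunit of the granulocyte alarmin calprotectin, stood at 348 CPM in IL-22+ and 340 CPM in IL-22- Arg1 cells, against 2152 and 2852 CPM in Arg1-zero cells of 12 h and 4.06 and 139 CPM in those of 0 h, with ratios of 0.162 (0.130 to 0.199) and 0.119 (0.0848 to 0.163). Its partner S100a9 had 1 UMI in IL-22+ and 0 UMIs in IL-22- Arg1 cells, against 209 and 764 CPM in Arg1-zero cells of 12 h. The ratio was 0.0185 in the IL-22-positive library and at most 0.0343 in the IL-22-negative one with its 0 set to 3 UMIs. Lcn2, which encodes the iron-sequestering lipocalin 2, stood at 259 CPM in IL-22+ and 297 CPM in IL-22- Arg1 cells, against 618 and 685 CPM, and Lrg1, an acute phase glycoprotein, at 120 and 105 CPM, against 249.9 and 369 CPM. In Arg1-zero cells these genes were high at 12 h relative to 0 h, with ratios of 76.1 (34.9 to 207) in IL-22+ and 65.0 (27.8 to 200.5) in IL-22- cells for Lcn2, in a comparison where 38 of 1407 genes (2.70%) were higher and 80 (5.69%) lower in the IL-22-positive fraction, and 51 of 1418 (3.60%) higher and 12 (0.846%) lower in the IL-22-negative fraction. Arg1 cells thus lay between 12 h and 0 h Arg1-zero cells on S100a8 and Lcn2. Neutrophil markers as a whole were higher in Arg1-zero cells, as given above, and the part of neutrophils among those cells in the ratios was not tested.

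Genes of blood monocytes were lower in part. Ly6c2, which encodes the Ly6C antigen of classical monocytes, stood at 670 CPM in IL-22+ and 227 CPM in IL-22- Arg1 cells, against 1320 and 1193 CPM in Arg1-zero cells of 12 h and 1280 and 1994 CPM in those of 0 h. Its ratios were 0.507 (0.434 to 0.590) in IL-22+ and 0.190 (0.124 to 0.279) in IL-22- cells. Pou2f2, an octamer-binding factor, had ratios of 0.411 in IL-22+ and 0.0825 in IL-22- cells. Ccr2 was close to Arg1-zero cells, at 507 CPM in IL-22+ and 567 CPM in IL-22- Arg1 cells against 693 and 597 CPM. Vcan, the proteoglycan versican, had 1.43 in IL-22+ and 2.05 in IL-22- cells. Of the 8 classical monocyte genes measured, 1 was higher and 2 lower in each library, so the list held genes of both directions. Genes of non-classical monocytes, which patrol vessels, summed to 465 CPM in IL-22+ and 122 CPM in IL-22- Arg1 cells, against 857 and 468 CPM in Arg1-zero cells. The C1q genes showed no shared direction, with C1qa at 0.885 in IL-22+ and 0.588 in IL-22- cells and C1qb at 1.55 and 1.84, and 0 of 4 and 0 of 3 measured genes of that list passed 2-fold.

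Within the Arg1 cells, several of these genes were higher where Arg1 itself was higher. Cells with 1, with 2 to 9 and with at least 10 Arg1 UMIs had Pf4 at 206, 608 and 3489 CPM in the IL-22-positive library and at 170, 194 and 523 CPM in the IL-22-negative library. Spp1 stood at 145, 209 and 2016 CPM in IL-22+ and at 0, 558 and 1092 CPM in IL-22- cells, and Fn1 at 1524, 2323 and 4312 CPM in IL-22+ and at 612, 1335 and 1751 CPM in IL-22- cells. The sums of these 3 genes were higher at each step, along the value that chose the cells. For Pf4 they rest on few cells, since 1 cell gave 158 of the 263 UMIs of the highest IL-22+ class, and the IL-22- classes held 5, 8 and 23 UMIs. Ccl24, at 1500, 798 and 2348 CPM in IL-22+ and at 442, 2913 and 2047 CPM in IL-22- cells, had no such order. Thbs1, at 556, 1007 and 1831 CPM in IL-22+ and at 102, 1821 and 523 CPM in IL-22- cells, had it in the IL-22-positive library alone. Hmox1 showed the opposite order in the IL-22-negative library, at 2654, 1189 and 205 CPM, and none in the IL-22-positive one, at 581, 469 and 570.5 CPM.

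The glycolysis list was already high in cells with 1 Arg1 UMI. Its sum was 6035 CPM in Arg1-zero cells and 14089.8, 13289.6 and 15189.9 CPM at rising Arg1 in the IL-22-positive library, and 8614, then 11839, 14589 and 17739 CPM in the IL-22-negative one. In the IL-22-negative library the sum was thus higher at each step of Arg1, and in the IL-22-positive library it had no such order. Mif had no such order in either, at 2068, 1735 and 1618 CPM in IL-22+ and at 612, 1068 and 887 CPM in IL-22- cells. The groups hold 21, 28 and 20 cells in the IL-22-positive library and 6, 9 and 8 in the IL-22-negative one, so single cells weigh heavily.

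**Figure D5:**
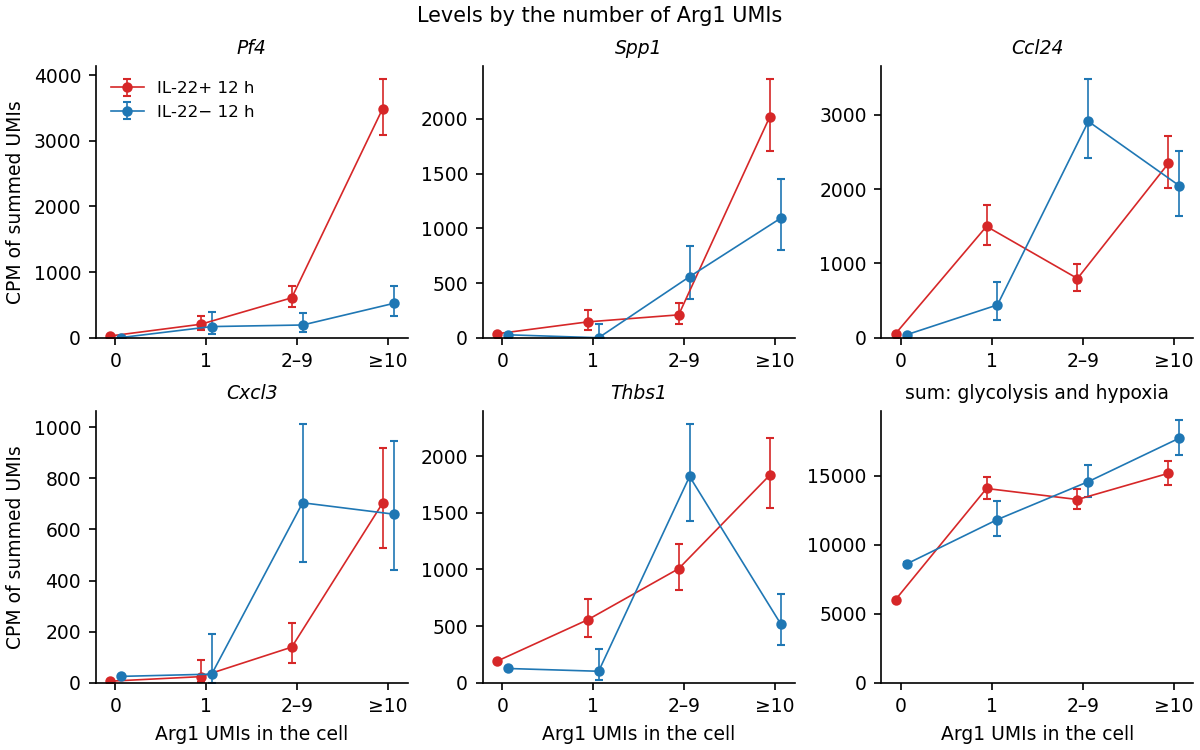
CPM of summed UMIs (vertical axes) in cells with 0, 1, 2 to 9 and at least 10 Arg1 UMIs for Pf4, Spp1, Ccl24, Cxcl3, Thbs1 and the summed glycolysis and hypoxia list, in the 12 h IL-22-positive and IL-22-negative libraries. Pf4 reaches 3489 and 523 CPM and Spp1 2016 and 1092 CPM in cells with at least 10 Arg1 UMIs, while the glycolysis sum stands at 14089.8 and 11839 CPM already at 1 Arg1 UMI.

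Pf4 divided the Arg1 cells into unlike sets. At rising Arg1 it was detected in 1 of 21, 9 of 28 and 9 of 20 cells of the IL-22-positive library and in 1 of 6, 3 of 9 and 2 of 8 cells of the IL-22-negative library, where detection had no order. The 19 cells with Pf4 of the IL-22-positive library had Ccl7 at 1927 CPM, against 382 CPM in the cells without it, Ccl24 at 2598 CPM against 1160 CPM, Spp1 at 1467 CPM against 506 CPM and Fn1 at 4419 CPM against 2151 CPM. The glycolysis list did not follow, at 11437 CPM in cells with Pf4 and 14847 CPM in cells without it. The 6 cells with Pf4 of the IL-22-negative library had Ccl24 at 5850 CPM, against 971 CPM without it, and Thbs1 at 3099 CPM against 327 CPM. Of these 6 cells, 1 held 46 of the 101 Thbs1 UMIs of all IL-22- Arg1 cells. The 6 cells also held 38 UMIs of NK and ILC1 genes, all in 1 cell. Cells with Pf4 of the IL-22-positive library were shallower, with a median of 1994 UMIs, against 4033 in cells without it.

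The number of named genes detected in each cell was also counted. Of the 15 genes named as higher in both libraries, the median Arg1 cell held 8 of them if IL-22-positive and 10 if IL-22-negative, against 4 and 3 in Arg1-zero cells of 12 h and 3 and 2 in those of 0 h. At least 8 of the 15 were detected in 36 of 69 IL-22+ (52.2%) and 16 of 23 IL-22- (69.6%) Arg1 cells, against 49 of 1036 (4.73%) and 12 of 561 (2.14%) Arg1-zero cells of 12 h, and 3 of 168 (1.79%) and 0 of 117 of 0 h. With each cell thinned to 1000 UMIs, the medians were 5 genes in IL-22+ and 6 in IL-22- Arg1 cells, against 2 and 1 in Arg1-zero cells of 12 h. The genes were chosen on these cells, so this describes how they are spread over cells. At least 8 of them were also detected in 49 and 12 cells of 12 h without a captured Arg1 UMI.

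Arg1 cells of the IL-22-positive and the IL-22-negative fraction were then compared directly at 12 h, next to the same ratio in Arg1-zero cells. Of 926 genes, 105 (11.3%) were at least 2-fold higher in IL-22-positive Arg1 cells and 75 (8.10%) lower, or 76 and 88 with sums scaled to the median ratio, where the median log2 ratio was 0.17. In Arg1-zero cells 27 of 1405 (1.92%) were higher and 113 (8.04%) lower. With 23 cells on one side, single cells set several of the most extreme ratios. Rsad2 led the higher genes with a ratio of 60.7 (10.7 to 2417) in Arg1 cells and 2.17 in Arg1-zero cells. Slpi, which encodes a secreted inhibitor of neutrophil elastase, stood at 1846 and 244 CPM in IL-22-positive and IL-22-negative Arg1 cells, a ratio of 7.55 (5.16 to 11.5), and had a ratio of 1.15 in Arg1-zero cells. Isg15 had 7.44 (4.84 to 12.0) in Arg1 cells and 1.76 in Arg1-zero cells, and Vegfa 9.09 (2.36 to 77.6) in Arg1 cells and 1.98 in Arg1-zero cells. Bcl2a1a, an anti-apoptotic gene with near-identical copies, had 13.3 in Arg1 cells and 2.81 in Arg1-zero cells, and Ccnb1ip1, a cyclin B-interacting ubiquitin ligase, 15.1 and 2.62. Ctla2a, a protease inhibitor gene, at 33.7, and Prg4, which encodes lubricin, at no less than 7.83, each rested on 1 cell that held 68 of 76 and 44 of 53 UMIs.

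On the lower side, Ckb, which encodes a creatine kinase, had a ratio of 0.0148 in Arg1 cells and 0.195 in Arg1-zero cells, and Ccl5 0.0760 and 0.439. Gng10, a G protein subunit, had 0.0964 in Arg1 cells and 0.198 in Arg1-zero cells, Rnh1, the ribonuclease inhibitor, 0.182 and 0.220, Tagln2, an actin-binding protein, 0.204 and 0.191, and Napsa, an aspartic protease, 0.218 and 0.378. These genes were lower in the IL-22-positive fraction in either group of cells. For Ccl5, 1 cell held 21 of the 35 IL-22- UMIs, and the ratio was 2.33 between cells with at least 10 Arg1 UMIs. Fabp5 was not lower in both groups of cells, with 0.162 in Arg1 cells and 2.03 in Arg1-zero cells. Gzma, a protease of cytotoxic lymphocytes, was at most 0.0380 and came from 2 IL-22-negative Arg1 cells, 1 with 33 of the 35 UMIs. Il22 itself and Il22ra1, its receptor subunit, had 0 UMIs in all Arg1 cells and all Arg1-zero cells of every library, so the sort fraction is a label of these cells that their own Il22 transcripts did not show. Of the gene groups above, 5 of 7 measured interferon genes, 4 of 4 genes of the C1q list and 4 of 17 glycolysis genes (Hk2, Bnip3, Pfkl and Slc16a3) were higher in IL-22-positive Arg1 cells. In Arg1-zero cells, 1 of 10 interferon genes, 3 of 4 C1q list genes and 1 of 12 glycolysis genes were. The C1q list had a median log2 ratio of 1.71 in Arg1 cells and 1.56 in Arg1-zero cells.

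Arg1 cells could not be compared between 12 h and 0 h, since 0 h had none. Some of the genes that were higher in Arg1 cells were also compared between 12 h and 0 h in Arg1-zero cells. Thbs1 had 12 h over 0 h ratios of 3.26 (2.40 to 4.55) and 3.75 (2.28 to 6.64) in the IL-22-positive and IL-22-negative fractions, Mif 3.52 (2.88 to 4.35) and 1.82 (1.37 to 2.45), and Cxcl2 1.74 (1.64 to 1.85) and 2.77 (2.50 to 3.06). Ldha lay within 2-fold of its 0 h level, at 1.08 (0.910 to 1.28) in IL-22+ and 1.62 (1.34 to 1.97) in IL-22- cells, and Fn1 at 1.52 (1.36 to 1.70) and 0.992 (0.884 to 1.12). Of these 5 genes, Thbs1 alone was at least 2-fold higher at 12 h in both fractions, while Mif and Cxcl2 each passed 2-fold in 1 fraction.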

How the data were processed

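Raw UMI counts per gene and cell were used from 4 matrices, 1 for each library, as deposited by the authors, with Cell Ranger 4.0.0 per the file headers and 3.0.1 per the submitters' processing notes, on the mm10 genome. The 10x Single Cell 3' v2 libraries were sequenced from CD45-positive liver cells, per the labels' protocols. The thresholds of 200 genes and 10% mitochondrial UMIs removed 28, 132, 11 and 254 barcodes of the 12 h IL-22-positive and IL-22-negative libraries and then of those of 0 h. Doublets were called with Scrublet and kept in the main values. Its automatic threshold called 1 cell of the 12 h IL-22-negative library, so the threshold of the 0 h library was used there.

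UMIs were summed over cells and given as CPM, and ratios carry exact conditional 95% intervals, shares exact Clopper-Pearson ones. UMIs of 1 library are not independent samples of a condition, so these cover counting error only. Where a sum was 0, 3 UMIs were put in its place, and the ratio is printed as at least or at most. Left out of the ratios were genes of the rule, hepatocyte genes, Xist and Y-linked genes, segments of antigen receptors, and genes of mitochondria and of ribosomal proteins. In the Arg1 against Arg1-zero comparison, the 15 highest and 15 lowest genes by the weaker of both libraries' log2 ratios were eligible to be named, and the 8 highest and 8 lowest in each other comparison, besides members of the gene lists. The cells and the lists were chosen with earlier results of these data known, and the levels by Arg1 amount and by Pf4 were added after seeing the data. Some results of the named genes and lists are not reported here. Of 432 list genes, 2 were absent from the features. Of the lists, 0 genes passed the minimum for Kupffer cells, B cells, T cells, ILC2, basophils and mast cells, platelets, endothelium, stellate and epithelial cells, and IL-22 with its receptors. Gene positions are from GENCODE and promoters from RefSeq, both on GRCm38. The steps were tested on simulated data. Python 3.11.15, numpy 2.4.6, scipy 1.17.1, pandas 2.3.3 and scanpy 1.11.5 were used. Alternatives tried were thinning, other Arg1 and Lyz2 minimums, other scalings, per-cell means, no minimum CPM, and leaving out Scrublet calls, cells with Alb and each gene's richest cell. The richest cell was left out on both sides of a ratio.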

Additional observations from a re-analysis of the deposited data

Results flagged for a closer look

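Rsad2 lay in opposite directions in the fractions. Its Arg1 over Arg1-zero ratio at 12 h was 2.32 for IL-22-positive and 0.0825 for IL-22-negative cells, and this difference was not tested. Slpi did likewise, at 2.79 and 0.426, also not tested. Fabp5 had an IL-22-positive over IL-22-negative ratio of 0.162 in Arg1 cells and of 2.03 in Arg1-zero cells, and that difference was not tested either. In the IL-22-negative library, the Arg1 cells number 23, and 1 of them held 57 of the 104 Fabp5 UMIs.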

How the results depend on the processing

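No paired analysis was possible because each group is 1 library with no replicate numbers, and 12 h could not be set against 0 h in Arg1 cells, of which 0 h had 0. The share of Arg1 cells in the IL-22-positive library of 12 h was 3.94% after thinning every cell to 1000 UMIs and 3.56% with at least 2 Arg1 UMIs, and that in the IL-22-negative library was 0.455% with no gene excluded. For Arg1 over Arg1-zero cells, the IL-22-positive library gave 92 lower genes with at least 2 Arg1 UMIs, 81 from means of per-cell CPM, 97 without each gene's richest cell, 232 with at least 10 Arg1 UMIs (added after seeing the data), 50 higher and 139 lower after thinning, and 1210 higher and 824 lower with no minimum CPM. The IL-22-negative library gave 59 lower genes with median-ratio scaling, 184 without the richest cell, 30 higher and 175 lower with at least 10 Arg1 UMIs, 10 higher and 186 lower after thinning, and 1327 and 738 with no minimum CPM. IL-22-positive over IL-22-negative Arg1 cells gave 877 higher and 685 lower with no minimum CPM, 158 and 47 without the richest cell, and 43 and 34 with at least 10 Arg1 UMIs, where Ccl5 turned to 2.33. The cause of these changes was not tested. Of the counts and shares, 25 values moved and 65 did not; of single named genes, 124 moved, 1 reversed and 733 did not. Depth and the 23 cells of the IL-22-negative library limit genes at low CPM.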

Other observations

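Some cells with Arg1 missed the rule, and they were chosen for a look after their values were seen. In the 12 h IL-22-positive library, 5 cells with Arg1, Lyz2 and an excluded gene had Pf4 at 16727 CPM, Ccl24 at 10688 CPM and Ccl7 at 3741 CPM, all above the Arg1 cells, and 2 of the 5 held Cd79a and 3 held Ppbp. The 9 cells of that library with Arg1 and no Lyz2 had Fn1 at 6790 CPM, Thbs1 at 3432 CPM, Spp1 at 2611 CPM and the glycolysis list at 17533 CPM. Constitutive hepatocyte genes summed to 5073 CPM in those 9 cells, against 165 CPM in Arg1-zero cells of that library. Hepatocytes also transcribe Arg1 and Fn1, and their part in these values was not tested. In the 12 h IL-22-negative library, 23 cells with an excluded gene had Ccl24 at 2693 CPM, Pf4 at 1683 CPM and Cxcl3 at 746 CPM, with the T cell list at 805 CPM. The 10 cells there with Arg1 and no Lyz2 had 0 UMIs of Pf4, Spp1, Ccl24 and Thbs1, with hepatocyte genes at 1405 CPM and genes of NK cells and ILC1 at 4387 CPM. Peritoneal macrophage markers gave 88 and 6 UMIs in Arg1 cells of the IL-22-positive and IL-22-negative libraries, of which Prg4 gave 53 in the IL-22-positive one, and Gata6, the defining factor of those macrophages, was at 0.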
